A study of Zea mays with 36 samples.

Results

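In maize seedlings moved to a solution without nitrate, 150 genes whose RNA was higher at 3 h than at 0 h in both leaf and root are described. They were chosen by values of these same libraries, with leaf and root tables joined on the gene identifier. A gene had to reach a mean of at least 5 TPM (transcripts per 1000000, the RNA of a gene as its share of the library) at 3 h in each tissue, rise by at least 0.7 in mean log2(TPM + 1) from 0 h to 3 h in each tissue, and have every 3 h library above every 0 h library in each tissue. Of 43459 genes, 198 met these limits, and the 150 with the largest smaller rise of the pair of tissues are the members. The limits were met by 2694 genes on the leaf values and by 636 on the root values, so the 198 shared genes are 7.35% of the leaf list and 31.13% of the root list. The 0 h and 3 h levels chose the members, so every value that involves these times is a description and carries no test. The study's tables give a protein description, a network place or a transcription factor clone for 49 of the members, and the other 101 are known here by identifier only.

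The plants were of the inbred line B73 and grew in hydroponic tanks with nitrate under 16 h of light and 8 h of darkness until about the fifth leaf stage. Leaf (the second and the third fully developed leaf) and root (seminal and crown roots mixed) were taken at 0 h with normal nitrogen (NN), at 0.5, 3 and 24 h after nitrate salts were replaced by chloride and sulfate (nitrogen deprivation, ND), and at 24.5 and 48 h, with nitrate back in the solution from 24 h on (nitrogen recovery, NR), where the sources differ on the last time: by the sample labels and the study's methods it is 48 h in all, but the treatment text of the labels adds 48 h to the first 24 h, so that the time since the return is 24 h or 48 h. It is called 48 h here. Each of the 6 times had 3 libraries per tissue, 36 in all, from plants pooled per replicate, and the sources differ on how many plants made a pool. No group stayed on nitrate throughout. The 3 h plants were therefore collected at another hour of the light period than the 0 h plants, and time without nitrate, hour of the day and plant age cannot be told apart between 0 h and 3 h. The 24 h and 48 h collections fall on the same hour of the day as 0 h, and 24.5 h on the same hour as 0.5 h. Comparisons of 24.5 h with 24 h, of 48 h with 24 h and of 24.5 h with 0.5 h were tested. None of the libraries compared in them chose the members. Their p-values, however, take the spread from all 18 libraries of a tissue, those of 0 h and 3 h included. The choice asked the 0 h and 3 h libraries to lie apart, so this spread is not independent of it.

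Read depth cannot be recovered from TPM and is unknown here. Libraries listed 20367 to 21735 genes at 1 TPM or more in leaf and 23774 to 24773 in root, and libraries of a group correlated at r = 0.948 to 0.984 in leaf and at 0.945 to 0.987 in root. The labelled tissues had their markers: LHCB5, a chlorophyll-binding protein of the light-harvesting antenna, spanned 482 to 1423 TPM in leaf libraries and 0 to 17.96 TPM in those of root, and NRT2.1, a high-affinity nitrate transporter, spanned 0 to 2.36 and 0.285 to 228 TPM. The NRT2.1 ranges overlapped between tissues. In root, NRT2.1 had a median of 76.4 TPM at 24 h (47.3 to 228) and of 1.52 TPM at 48 h (0.285 to 217). The highest 48 h library thus stood far above the others of its group. In root, LHCB5 had a median of 2.68 TPM at 0 h (1.12 to 4.10) and of 0.44 TPM at 3 h (0 to 11.0). A few libraries stood apart over the members. Leaf 24.5 h replicate 3 was the lowest of its group for 117 of the 150 members and leaf 48 h replicate 3 the highest for 102, while root 24 h replicate 2 was the highest for 90 and root 24.5 h replicate 2 the lowest for 94. Whether separate cultures or tanks stand behind the replicates is not stated, so p-values measure the spread between these libraries.

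Plants time much of their RNA production with a circadian clock, a loop of transcription factors that repress each other in turn. In Arabidopsis, the MYB-type factors CCA1 and LHY act around dawn, the pseudo-response regulators PRR9, PRR7, PRR5 and PRR1 (also called TOC1, and APRR in protein databases) follow through the day, and LUX with EARLY FLOWERING partners forms the evening complex. Adagio proteins are blue-light receptors of the F-box type that mark clock proteins for breakdown, and CONSTANS-like zinc finger proteins link the clock and light to development. Maize carries many of these genes as pairs left by its ancient genome duplication.

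At 3 h, every member stood above its 0 h level by construction, and the size of the rise differed between tissues. Rises on the log2(TPM + 1) scale had a median of 1.78 in leaf (0.78 to 8.34) and of 1.16 in root (0.78 to 4.78), against medians of 0.19 and -0.0046 over all genes tested. The leaf rise was the larger for 118 members and the root rise for 32, each measured within its own table. By the call used throughout (limma, Benjamini-Hochberg adjusted p under 0.05 and a log2 fold change beyond 1), 120 members were called higher at 3 h in leaf, where 8.55% of all genes tested were, and 90 in root, where 1.12% were, counts that the rule itself sets. Levels at 3 h spanned 6.06 to 4657 TPM in leaf and 5.17 to 3281 TPM in root, and 102 members had the higher TPM in leaf. As libraries come from whole organs, fewer cells of a type and less RNA per cell cannot be told apart in any of these values.

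The members had already moved toward their 3 h level at 0.5 h. With each member's 0 h mean set to 0% and its 3 h mean to 100%, the median position at 0.5 h was 44.8% in leaf (quartiles 26.3% and 60.1%) and 61.4% in root (37.9% and 87.6%). At 0.5 h against 0 h, 60 members were called higher in leaf, where 1.79% of all genes were, and 56 in root, where 1.77% were. These comparisons share the 0 h libraries with the rule.

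A day after the start, at the same hour as 0 h, the members had come down from 3 h but not to the 0 h level. The median position at 24 h was 39.4% in leaf and 56.3% in root, and the 24 h mean was above the 0 h mean for 137 members in leaf and 144 in root. Every 24 h library was above every 0 h library for 111 members in leaf, where 31.0% of all genes showed this, and for 109 in root, where 16.4% did. Every 24 h library was below every 3 h library for 122 members in leaf (27.9% of all genes) and for 92 in root (20.4%). The low 0 h level belongs to the choice, so a return toward the middle at 24 h is not a test of an effect of deprivation. At 48 h, the positions were 50.1% in leaf and 63.8% in root.

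**Figure D1:**
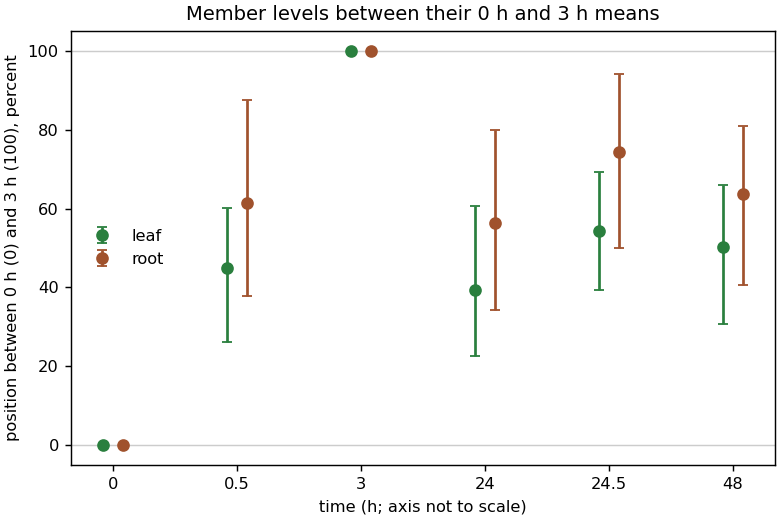
Position of the 150 members between their 0 h mean (0%) and their 3 h mean (100%) on log2(TPM + 1), by time (h, axis not to scale), for leaf (green) and root (brown). Points are medians over members and bars run between quartiles; at 24 h the medians are 39.4% in leaf and 56.3% in root.

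Over the 6 times, 3 h held the highest mean of 138 members in leaf and of 99 in root, and of 92 in both tissues. The next most frequent time of the highest mean in root was 24.5 h with 26 members, followed by 0.5 h with 13. The lowest mean fell at 0 h for 128 members in leaf, for 136 in root and for 116 in both.

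**Figure D2:**
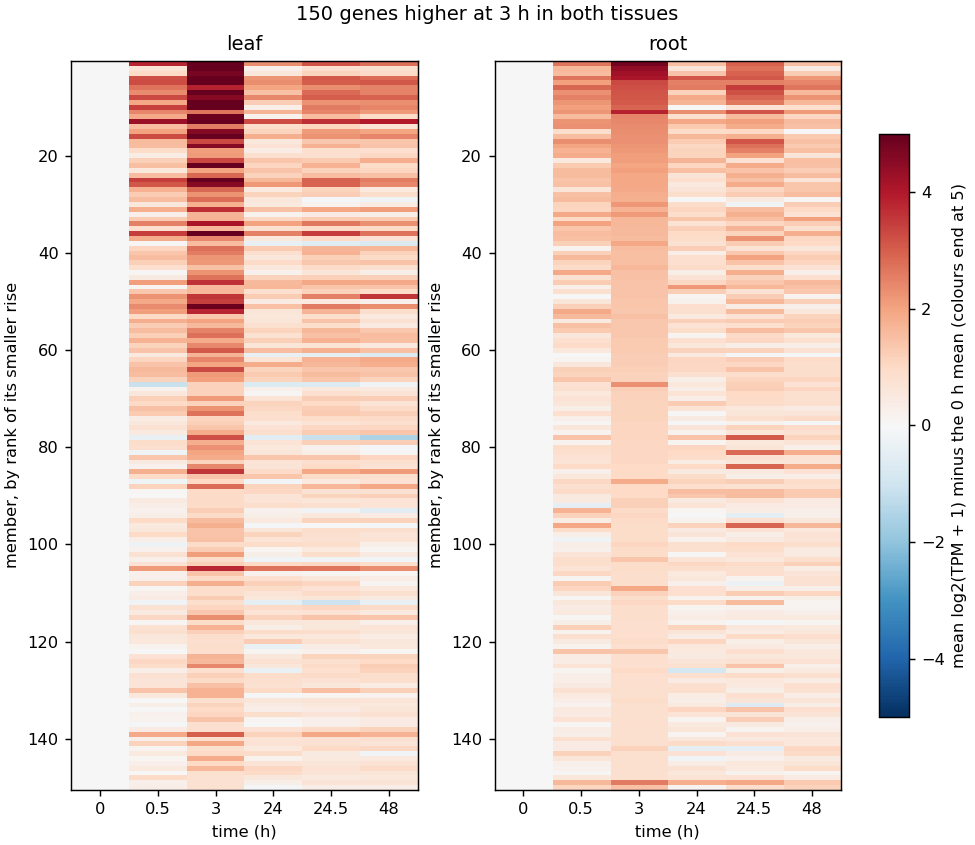
Mean log2(TPM + 1) of the 150 members at each time (h) minus their 0 h mean, in leaf (left) and root (right), with members ordered by rank of the smaller rise from top to bottom. Red is above 0 h and blue below, with colours ending at 5; the 3 h column is darkest in leaf, and in root the 24.5 h column reaches the shade of 3 h for a number of members.

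The leading annotated members were clock genes. A clock and light signalling list, drawn up here from words in the descriptions and names of the study's tables, held 17 identifiers. Of these, 10 are members, with a median rise of 4.12 in leaf and 2.40 in root. The list was made with earlier results of these data known. The tables describe 1313 identifiers in all, and 46 members have a description. These descriptions come from the study's lists of differentially expressed genes of the same libraries, so 10 of 17 is not a share of all clock genes. The 2 members described as transcription factor LUX, the DNA-binding part of the evening complex, had ranks 2 and 3 of all. The first, Zm00001eb139830, was listed at 0, 0.238 and 0.254 TPM in leaf at 0 h, 1.12, 0.442 and 1.19 at 0.5 h and 38.2, 37.0 and 48.9 at 3 h. Its leaf values at 24 h were 0.125, 0.116 and 1.10 TPM, so the 3 h libraries stood far above those of the day after. In root it had 0.200, 1.13 and 0.177 TPM at 0 h, 24.5, 24.6 and 47.1 at 3 h and 1.16, 1.57 and 1.05 at 24 h.

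Zm00001eb362240, the second LUX member, ran alike. Its leaf values were 0.296, 0 and 0.182 TPM at 0 h, 29.0, 23.5 and 39.2 at 3 h and 1.16, 0.640 and 0.401 at 24 h. In root they were 0.240, 0.486 and 0.925 TPM at 0 h, 31.2, 24.5 and 25.7 at 3 h and 2.90, 2.29 and 4.48 at 24 h. The 3 h and 0 h ranges did not meet in either tissue, for either gene. How reads shared by near-identical copies were divided is not given in the sources used here, so the split between these genes, and within the pairs described next, is uncertain.

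The pseudo-response regulators, which repress the dawn factors in Arabidopsis, were represented by 4 members. Zm00001eb247330, described as APRR1, had 1.28, 0.942 and 1.19 TPM in leaf at 0 h and 70.4, 68.7 and 78.0 at 3 h. In root it went from 4.86, 9.81 and 9.36 TPM at 0 h to 69.2, 74.5 and 69.5 at 3 h and stood at 23.4, 29.2 and 28.5 at 24 h. The root libraries of 24 h lay between those of 0 h and 3 h without overlap, whereas in leaf the 24 h values, 6.76, 3.31 and 2.68 TPM, were nearer to 0 h.

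The other APRR1 member, Zm00001eb184870 (Orphan90 in the study's list of clones; RefSeq gene on chromosome 4, 145827887 to 145830889, NAM-5.0 assembly), had 0.659, 1.05 and 0.987 TPM in leaf at 0 h and 22.7, 26.0 and 22.0 at 3 h. In root it was at 3.58, 5.53 and 5.66 TPM at 0 h and at 17.9, 19.2 and 19.2 at 3 h, a smaller relative change than in leaf. Zm00001eb103490, described as APRR5, rose in leaf from 19.9, 26.7 and 32.9 to 152, 156 and 143 TPM, and its root libraries from 10.2, 13.9 and 17.0 to 35.8, 39.8 and 31.9. For this gene, the root libraries at 0.5 h, 34.0, 33.6 and 37.1 TPM, already overlapped those at 3 h. Zm00001eb092230, described as APRR9, had 6.32, 6.61 and 10.3 TPM at 0 h and 69.1, 64.4 and 65.1 at 3 h in leaf. Its root change was near the lower limit of the choice, from 14.5, 18.1 and 21.9 to 33.4, 32.5 and 29.8 TPM.

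Both members described as Adagio protein 3, an F-box blue-light receptor, were among the 10 with the largest smaller rise. Zm00001eb201580 had 0.7002, 0.428 and 1.09 TPM at 0 h, 14.7, 16.4 and 15.4 at 0.5 h and 58.9, 53.7 and 59.0 at 3 h in leaf. Its root libraries had 0.572, 0.786 and 1.32 TPM at 0 h, 17.1, 18.6 and 17.1 at 3 h and 8.29, 10.0 and 11.2 at 24 h. Zm00001eb113780 had 3.18, 2.13 and 4.95 TPM at 0 h and 94.2, 97.0 and 107 at 3 h in leaf. Its root levels were 3.32, 4.83 and 6.22 TPM at 0 h and 49.7, 41.7 and 52.6 at 3 h. For both genes, all 24 h libraries were above all 0 h libraries in both tissues.

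The pair described as CONSTANS-LIKE 9, zinc finger proteins of the CONSTANS family, rose later in leaf. COL5 (Zm00001eb253150; RefSeq gene on chromosome 5, 212216758 to 212221681) had 11.4, 8.99 and 9.35 TPM at 0 h, 11.1, 13.7 and 7.45 at 0.5 h and 49.7, 50.2 and 51.4 at 3 h in leaf, so the 0.5 h range still covered that of 0 h. In root the 0.5 h libraries, 17.6, 26.4 and 47.3 TPM, spread around the 3 h values of 19.95, 20.3 and 21.4 TPM. ZmCOL14 (Zm00001eb189080; RefSeq gene on chromosome 4, 167981902 to 167988237) was low in root, with 3.34, 2.91 and 2.00 TPM at 0 h and 4.89, 6.75 and 4.93 at 3 h.

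**Figure D3:**
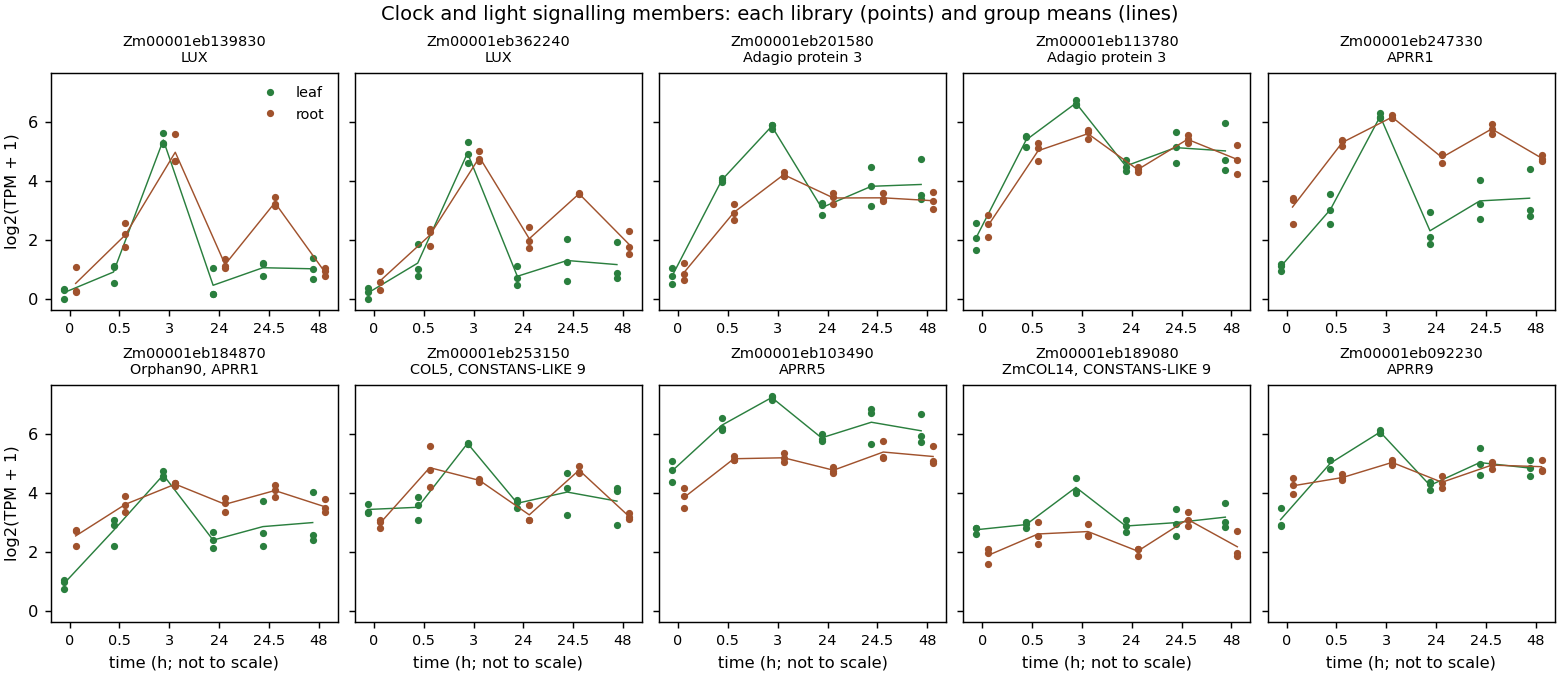
Levels of the 10 clock and light signalling members as log2(TPM + 1), by time (h, axis not to scale), in leaf (green) and root (brown). Points are single libraries and lines join group means; both LUX genes peak at 3 h and, in root, show a smaller second peak at 24.5 h.

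The 7 clock list genes that are not members included the dawn side of the loop. The 3 identifiers described as LHY had means of 338, 559 and 486 TPM in leaf at 0 h and of 4.83, 19.9 and 22.1 TPM at 3 h, and in root of 33.9, 57.1 and 42.4 TPM at 0 h and of 2.48, 6.38 and 6.20 TPM at 3 h. Their levels were thus low at 3 h in both tissues, where the members were high. REVEILLE 7, a related MYB factor, differed by -2.76 in leaf and -0.96 in root (3 h minus 0 h on log2(TPM + 1)). SPA1-RELATED 4 differed by -1.40 in leaf and 0.64 in root, and CONSTANS-LIKE 4 by 0.12 and -0.12. A further CONSTANS-LIKE 9 had means of 3.73 TPM at 0 h and 20.5 TPM at 3 h in root but means under 1 TPM at all times in leaf.

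The return of nitrate was tested as 24.5 h against 24 h, a step of 0.5 h that includes 0.5 h more of the day. In root, 20 members were called higher, 13.3% of them, where 2.9% of all 26245 genes tested were. Another 2 were called lower, where 0.644% of all genes were. Of 150 genes picked by the mirrored limits (lower at 3 h than at 0 h in both tissues), 13 were called higher and 3 lower, and the difference between these sets was not tested. The median log2 fold change was 0.25 over the members and 0.12 over all genes, and 105 members were positive, where 62.8% of all genes were. Every 24.5 h library was above every 24 h library for 47 members in root, 31.3%, where 27.9% of all genes showed this, so by this looser count the members were near the background.

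The median over all genes moved by more than 0.1 with the scaling in this comparison. With median-of-ratios scaling, which sets that median to 0.0062, 14 members were called higher and 2 lower. With quantile normalization the counts were 13 and 3, and over all genes the share of calls that were higher went from 81.8% to 69.6% and 63.0%. The total of 22 calls became 13 without root 24.5 h replicate 3 and 14 without root 24 h replicate 1.

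LUX led the root calls. Zm00001eb139830 went from 1.16, 1.57 and 1.05 TPM at 24 h to 8.26, 7.85 and 9.90 at 24.5 h, with no overlap and a log2 fold change of 2.098 ± 0.27 SE, adjusted p = 0.000345. Zm00001eb362240 went from 2.90, 2.29 and 4.48 to 10.8, 11.0 and 10.8 TPM, a log2 fold change of 1.52 ± 0.23 SE, adjusted p = 0.000801. COL5 went from 7.53, 11.1 and 7.55 to 24.8, 25.2 and 29.6 TPM (1.52 ± 0.24 SE, adjusted p = 0.00101), above its 3 h libraries. ZmCOL14 changed by 1.08 ± 0.24 SE, adjusted p = 0.00668, and the Adagio protein 3 member Zm00001eb113780 by 1.03 ± 0.22 SE, adjusted p = 0.00584, both calls that were lost under both scalings. The remaining clock members were not called in root: Zm00001eb247330 (APRR1) changed by 0.97 ± 0.18 SE, adjusted p = 0.00242, just under the fold limit, and Zm00001eb201580, the other Adagio protein 3, by 0.00 ± 0.18 SE, adjusted p = 0.99. APRR5 changed by 0.62 ± 0.19 SE, adjusted p = 0.0321 and APRR9 by 0.58 ± 0.14 SE, adjusted p = 0.0117. The other APRR1 member, Zm00001eb184870, had root means of 11.4 TPM at 24 h and 16.1 TPM at 24.5 h.

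The genes of RNA-binding protein CP29B, a chloroplast protein that binds and stabilises organelle RNA in Arabidopsis, were called as a pair. Zm00001eb110100 went from 15.1, 16.4 and 15.7 TPM in root at 24 h to 53.8, 48.7 and 83.5 at 24.5 h, a log2 fold change of 1.88 ± 0.17 SE, adjusted p = 9.52e-05, the smallest adjusted p of any member in this comparison. The 24.5 h libraries were above all others of root, those of 3 h included, 34.6, 29.4 and 33.5 TPM. Zm00001eb328390 went from 11.5, 9.16 and 12.1 to 19.6, 18.01 and 45.7 TPM (1.16 ± 0.27 SE, adjusted p = 0.00852). A single library carried much of this change, and without root 24.5 h replicate 3 it was 0.74 and no longer called. The call for Zm00001eb328390 was also lost with a pseudocount of 5, with quantile normalization and in a fit of only the groups compared. The leaf marker LHCB5 had medians of 1.30 TPM at 24 h and 3.45 TPM at 24.5 h in root, with a highest value of 17.96 TPM, and its part in these chloroplast-protein calls was not tested.

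HSF6 (Zm00001eb242480; RefSeq gene on chromosome 5, 171520289 to 171523511), a heat stress transcription factor, went from 2.53, 4.70 and 3.22 to 9.40, 9.65 and 11.1 TPM in root, a log2 fold change of 1.33 ± 0.19 SE, adjusted p = 0.000622, and its 24.5 h libraries were above all those of 3 h, 6.66, 6.13 and 5.19 TPM. The ABC transporter A family member 8 (Zm00001eb178670) had 10.7, 56.8 and 11.5 TPM at 24 h and 148, 23.6 and 122 at 24.5 h, so that the groups overlapped. Its log2 fold change of 1.91 ± 0.62 SE, adjusted p = 0.0419, was not called under either scaling, with the replicate block or without any of 4 single libraries. CWINV3 (Zm00001eb067250), a cell wall invertase that splits sucrose, had the same order of libraries, with 8.81, 45.3 and 5.22 TPM at 24 h and 90.0, 13.0 and 87.2 at 24.5 h, and was not called (1.77 ± 0.73 SE, adjusted p = 0.106). For both genes, replicate 2 was the highest library at 24 h and the lowest at 24.5 h.

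Among members without annotation, 11 more were called higher in root, and Zm00001eb111800 and Zm00001eb364520 were called lower. These 2 were picked for mention after their values were seen. Zm00001eb111800 went from 5.12, 7.93 and 4.29 TPM at 24 h to 2.22, 1.82 and 2.18 at 24.5 h (-1.11 ± 0.29 SE, adjusted p = 0.0171), and Zm00001eb364520 from 79.6, 144 and 87.1 to 56.5, 36.2 and 44.6 TPM (-1.13 ± 0.25 SE, adjusted p = 0.00626). Both lower calls were lost without root 24 h replicate 2, the highest 24 h library for each gene. At 48 h both genes overlapped their 24 h ranges again, with 7.07, 8.68 and 6.26 TPM for the first and 103, 81.1 and 86.0 TPM for the second.

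Of the 20 members called higher in root at 24.5 h, 14 had also been called higher at 0.5 h against 0 h. In that comparison, 56 of the 150 members and 1.77% of all genes tested were called higher. The overlap was not counted over all genes, so whether it is particular to the members is not known. Nitrate was taken away in one step and given back in the other, and the steps share no library, but the low 0 h level comes from the choice of members.

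**Figure D4:**
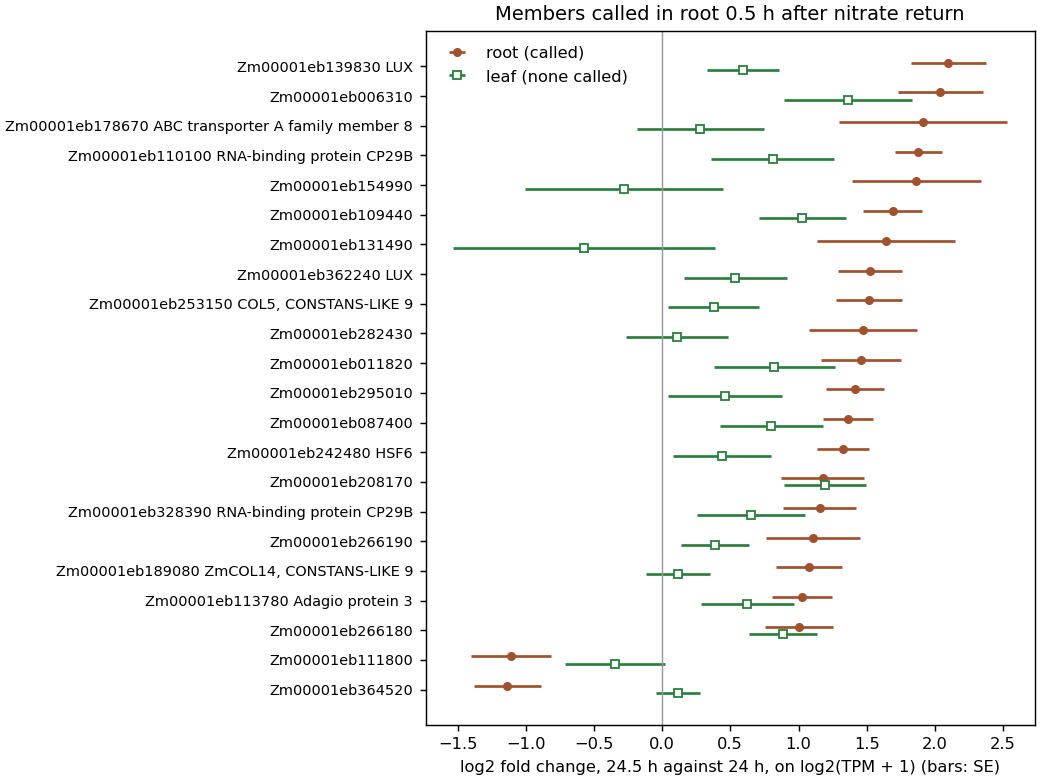
Log2 fold change on log2(TPM + 1) from 24 h to 24.5 h for the 22 members called in root (filled circles), with the leaf change of the same genes (open squares) beside it; bars are SE. The root changes run from -1.134 to 2.098, and none of the leaf changes was called.

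In leaf, no member was called in this comparison in either direction (limma), where 0.0215% of all 23268 genes tested were called higher and 0.0043% lower. At an unadjusted p under 0.05 there were 34 members, 32 of them higher, where 12.3% of all genes passed and 9.64% passed as higher. Of the mirrored 150 genes, 33 passed and 22 of these were higher, and the difference between the sets was not tested. The median log2 fold change was 0.27 over the members and 0.085 over all genes, and 113 members were positive, where 62.9% of all genes were. Every 24.5 h library was above every 24 h library for 21 members and for 16 of the mirrored genes, where 11.1% of all genes showed this. Leaf 24.5 h replicate 3, the lowest of its group for most members, touches this count, as 1 member was called without it. The LUX member Zm00001eb139830 had 0.125, 0.116 and 1.10 TPM at 24 h and 1.34, 1.27 and 0.715 at 24.5 h in leaf (0.60 ± 0.26 SE, adjusted p = 0.377), and APRR1 (Zm00001eb247330) had 6.76, 3.31 and 2.68 TPM at 24 h and 15.3, 8.43 and 5.59 at 24.5 h (1.01 ± 0.40 SE, adjusted p = 0.316). Of the 20 members called higher in root, 18 had a positive leaf change, with a median of 0.57, and for 4 of them the leaf libraries did not overlap. Tissues were fitted apart, and whether the change differed between them was not tested.

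The later recovery time was tested as 48 h against 24 h, at the same hour of the day under either reading of the last time. In leaf, 2 members were called higher and none lower, where 0.241% and 0.0903% of all genes were. At an unadjusted p under 0.05 there were 34 members in leaf, 26 of them higher, where 18.6% of all genes passed and 14.7% passed as higher. In root, 3 were called higher and none lower, where 0.625% and 0.362% of all genes were. There, 40 members had an unadjusted p under 0.05 and 24 of them were higher, near the 23.8% and 14.8% of all genes. Median log2 fold changes were 0.18 in leaf and 0.07 in root, beside 0.12 and 0.05 over all genes, and the leaf calls were 1 higher and 1 lower with median-of-ratios scaling. Zm00001eb208170, without annotation and picked after its values were seen, was called in both tissues. Leaf libraries had 7.14, 2.70 and 3.33 TPM at 24 h and 15.0, 14.9 and 10.9 at 48 h (1.51 ± 0.30 SE, adjusted p = 0.0336) and root libraries had 1.48, 1.43 and 3.33 TPM at 24 h and 6.83, 5.73 and 7.65 at 48 h (1.38 ± 0.30 SE, adjusted p = 0.0217), with no overlap in either. The root count rests on single libraries, as it became 16 without root 48 h replicate 2 and 0 without root 48 h replicate 3 or root 24 h replicate 2. The leaf count became 5 when replicate 2 of 48 h was left out, and 0 when replicate 1 of 48 h or replicate 2 or 3 of 24 h was.

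The clock members showed no call between 24 h and 48 h. In root, the LUX member Zm00001eb139830 had 0.697, 0.919 and 1.09 TPM at 48 h, below its 24.5 h libraries and overlapping the lower end of 24 h. APRR9 (Zm00001eb092230) had 19.1, 17.2 and 23.0 TPM at 24 h and 26.1, 26.7 and 34.0 at 48 h, without overlap, and its log2 fold change of 0.53 ± 0.14 SE, adjusted p = 0.0459, was under the fold limit.

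The comparison of 24.5 h with 0.5 h sets 0.5 h after nitrate return beside 0.5 h after nitrate withdrawal, in plants a day apart in age collected at one hour of the day. In root, 7 members were called higher, where 1.28% of all genes were, and 4 lower, where 1.11% were. The mirrored 150 genes had 8 calls in each direction. With median-of-ratios scaling the members' counts were 3 and 5 and with quantile normalization 4 and 6, so the balance of directions turns with the scaling. In leaf, 1 member was called higher and none lower, where 0.434% and 0.928% of all genes were. The scalings gave 0 higher and 2 lower or 1 of each. At an unadjusted p under 0.05 there were 27 members, 17 of them higher, where 25.9% of all genes passed and 19.5% passed as higher. The leaf count became 7 without leaf 24.5 h replicate 3 and 0 without any one of 4 other libraries.

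The LUX genes were again among the root calls. Zm00001eb362240 had 2.498, 3.88 and 4.20 TPM at 0.5 h and 10.8, 11.0 and 10.8 at 24.5 h, a log2 fold change of 1.41 ± 0.23 SE, adjusted p = 0.0035. Zm00001eb139830 had 2.38, 3.57 and 5.00 TPM at 0.5 h and 8.26, 7.85 and 9.90 at 24.5 h (1.09 ± 0.27 SE, adjusted p = 0.022), a call lost under both scalings, both other pseudocounts and without any of 4 single libraries. Zinc transporter 1 (Zm00001eb071010), a plasma membrane zinc carrier of the ZIP family in Arabidopsis, went from 125, 109 and 122 TPM at 0.5 h to 291, 211 and 282 at 24.5 h (1.12 ± 0.23 SE, adjusted p = 0.00939), a call lost with median-of-ratios scaling, where the change was 0.99. Its root libraries at 3 h had 252, 287 and 233 TPM and those at 24 h 191, 275 and 223 TPM, so it was near the 3 h level at 24 h and 24.5 h. At 48 h its root libraries spread widely, with a mean of 229 TPM and an SD of 108.

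ZmCA3P4 (Zm00001eb327140; RefSeq gene on chromosome 7, 173809193 to 173810272), described as subunit B-2 of nuclear factor Y, a trimeric factor that binds CCAAT boxes, was the annotated member called lower. Its root libraries had 5.19, 5.23 and 7.08 TPM at 0.5 h and 1.35, 0.686 and 1.48 at 24.5 h, without overlap (-1.66 ± 0.26 SE, adjusted p = 0.00252). The 24.5 h values also lay below those of 24 h, 2.42, 1.98 and 1.58 TPM, though that step was not called (-0.47 ± 0.26 SE, adjusted p = 0.217). In leaf it stayed between 5.54 and 13.7 TPM over all libraries. Zm00001eb171190, without annotation and picked after its values were seen, was called higher in both tissues, and its 24.5 h libraries overlapped those of 0.5 h in neither. Leaf libraries had 11.3, 11.7 and 16.1 TPM at 0.5 h and 37.6, 27.1 and 25.9 at 24.5 h (1.15 ± 0.23 SE, adjusted p = 0.0217), and root libraries had 83.4, 51.8 and 48.0 TPM and 151.4, 109 and 141 TPM at these times (1.15 ± 0.28 SE, adjusted p = 0.0191).

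The other transcription factors of the study's lists were not called in a tested comparison. bZIP111 (Zm00001eb031210; RefSeq gene on chromosome 1, 174624316 to 174629107), described as basic leucine zipper 25, was abundant in leaf, with 105, 140.3 and 248 TPM at 0 h, 582, 604 and 477 at 0.5 h and 611, 656 and 617 at 3 h, so most of the leaf rise was present by 0.5 h and the 0.5 h libraries stayed just below those of 3 h. In root it had 15.6, 31.3 and 34.2 TPM at 0 h, 63.5, 56.6 and 83.6 at 3 h and 58.5, 55.8 and 63.5 at 24 h. bZIP112 (Zm00001eb388050; RefSeq gene on chromosome 9, 105145325 to 105147193), of the same family, had 26.6 ± 4.37 TPM at 0 h and 105 ± 17.1 at 3 h in leaf (mean ± SD, n = 3). In root it had 59.8, 58.2 and 71.2 TPM at 0 h and 112, 105 and 112 at 3 h. Its root libraries at 24 h, 113, 139 and 115 TPM, were above all those of 3 h.

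NLP13 (Zm00001eb320950) belongs to the NIN-like proteins, a family known in Arabidopsis for nitrate signalling. Its leaf libraries had 14.1, 13.3 and 17.6 TPM at 0 h and 34.0, 26.1 and 30.2 at 3 h. In root it had 8.88, 14.9 and 11.7 TPM at 0 h, 7.88, 9.21 and 7.42 at 0.5 h and 25.3, 34.3 and 24.9 at 3 h, so it was no higher at 0.5 h than at 0 h. After nitrate return it had 13.2, 20.9 and 14.4 TPM in root against 17.6, 18.2 and 21.9 at 24 h, with overlapping ranges (-0.26 ± 0.43 SE, adjusted p = 0.717). MYB31 (Zm00001eb103730; RefSeq gene on chromosome 2, 202730798 to 202739479), described as the transcription repressor MYB4, a factor that represses phenylpropanoid genes in Arabidopsis, had 2.24, 1.55 and 2.199 TPM at 0 h and 8.99, 7.65 and 9.96 at 3 h in leaf. It was the more abundant in root, with 15.8, 23.9 and 22.1 TPM at 0 h, 37.0, 40.1 and 35.8 at 3 h and 43.7, 47.5 and 44.0 at 24 h, the last above all 3 h libraries.

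The study's network lists of nitrogen uptake and assimilation genes held no member. None of the 16 network genes of nitrate assimilation, the 15 of nitrogen transport or the 8 of amino acid metabolism was a member, and neither was any of the 33 described genes of the amino acid and nitrogen list or the 58 of the hormone list. The members are 150 of 43459 genes, so network lists this short would hold few or none of them by their size alone. The network itself had 5 members among its 371 nodes. All were in its transcriptional regulation group, which holds 302 of the nodes. As descriptions come from genes the study tabulated, the counts of these keyword lists depend on which genes it described. The keyword lists go by words in the descriptions, so related genes can fall outside them. Mitochondrial cysteine synthase and the kinase SRK2E, both given below, are members that neither the amino acid and nitrogen list nor the hormone list holds.

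Metabolic and organelle proteins stood between the clock genes in rank. Thiamine thiazole synthase (Zm00001eb356910), which makes the thiazole part of vitamin B1 in the chloroplast, had 60.5, 98.4 and 169.6 TPM at 0 h and 1541, 1230.2 and 1630.4 at 3 h in leaf. In root it had 0.902, 1.96 and 1.14 TPM at 0 h, 12.4, 25.5 and 12.7 at 0.5 h and 19.2, 15.3 and 29.9 at 3 h. The leaf level was thus far above that of root at each of these times, and the root libraries overlapped between 0.5 h, 3 h and all later times.

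Bifunctional nuclease 1 (Zm00001eb135130), an RNA- and DNA-cutting enzyme, had the largest leaf rise of all members. Its leaf libraries had 1.24, 1.11 and 1.22 TPM at 0 h, 12.8, 21.9 and 44.4 at 0.5 h, 689.5, 527 and 969 at 3 h and 7.92, 4.85 and 5.14 at 24 h, with no overlap of 3 h with any other time. In root the same gene had 0.707, 1.16 and 1.07 TPM at 0 h and 5.38, 8.93 and 5.76 at 3 h, a far smaller relative change than in leaf. CCG-binding protein 1 (Zm00001eb214110) showed a like difference of scale. Its leaf means were 13.0 ± 2.72 TPM at 0 h and 1248 ± 68.7 at 3 h (here and in the next paragraphs, mean ± SD, n = 3), while its root means were 32.0 ± 2.85 and 103 ± 26.2 TPM.

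The redox list held a chloroplast and a glutaredoxin member. Thioredoxin-like 3-1 (Zm00001eb256520), a redox protein of the chloroplast, had leaf means of 6.27 ± 2.55 TPM at 0 h and 209 ± 12.4 at 3 h, and root means of 1.20 ± 0.488 and 10.9 ± 2.27 TPM. Monothiol glutaredoxin-S2 (Zm00001eb004060) had 0.209, 0.807 and 0.411 TPM at 0 h and 3.29, 1.502 and 10.7 at 3 h in root, where a single 3 h library was well above the others. Mitochondrial cysteine synthase (Zm00001eb376890), the last step of cysteine assembly, rose by similar amounts in both tissues, by 1.75 in leaf and 1.65 in root on log2(TPM + 1).

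Of the 2 carbohydrate members, alpha-amylase 3 (Zm00001eb154950), a starch-degrading enzyme of the chloroplast, was below its 0 h level in leaf at 0.5 h and 24 h. Its leaf libraries had 52.4, 53.9 and 47.9 TPM at 0 h, 20.7, 21.4 and 27.9 at 0.5 h, 115, 104 and 129 at 3 h and 45.3, 23.8 and 29.6 at 24 h. The 3 h level thus followed a dip. Its root libraries had 3.27, 4.73 and 4.01 TPM at 0 h and 23.2, 29.6 and 17.5 at 3 h, without such a dip at 0.5 h, 5.73, 8.22 and 8.69 TPM. CWINV3 was low in leaf at 2.71 ± 1.56 TPM at 0 h and 11.7 ± 5.55 at 3 h. In root its 0.5 h libraries, 35.2, 13.8 and 25.8 TPM, were above its 3 h libraries, 11.2, 11.1 and 11.4 TPM.

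The transport list held 4 members. Aquaporin TIP4-1 (Zm00001eb284350), a water channel of the vacuole membrane, had leaf means of 66.0 ± 20.5 TPM at 0 h and 411 ± 12.5 at 3 h and root means of 3.00 ± 2.01 and 53.9 ± 12.0 TPM. Its rise was the larger in root, as for 32 members in all. Sec61 subunit beta (Zm00001eb356920), part of the channel that brings proteins into the endoplasmic reticulum, had the higher level in root, with 94.6 ± 12.6 TPM at 3 h against 48.9 ± 5.06 at 0 h, and in leaf 67.4 ± 7.33 against 24.5 ± 3.26 TPM. The zinc and ABC transporters are described above.

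The kinase list held 5 members, and the 4 with the largest smaller rise are described here. The fifth, inositol-tetrakisphosphate 1-kinase 3 (Zm00001eb055860), rose by 1.66 in leaf and 0.78 in root on log2(TPM + 1). SRK2E (Zm00001eb051510), which carries abscisic acid signals in Arabidopsis, had 7.79, 5.62 and 5.40 TPM at 0 h, 7.00, 8.18 and 7.30 at 0.5 h and 21.7, 22.6 and 22.6 at 3 h in leaf. The leaf values at 0.5 h overlapped those of 0 h, whereas in root the 0.5 h libraries, 28.5, 26.7 and 50.6 TPM, overlapped the 3 h values of 40.3, 44.5 and 34.3 TPM. CBL-interacting kinase 10 (Zm00001eb016180), a partner of calcium sensors, had its highest root mean at 0.5 h, with 237 ± 29.9 TPM against 89.5 ± 8.86 at 0 h and 201 ± 16.3 at 3 h. In leaf it peaked at 3 h, with 283 ± 21.9 TPM against 68.6 ± 9.23 at 0 h. ATG1a (Zm00001eb001590), which starts autophagy, rose by 1.15 in leaf and 1.24 in root on log2(TPM + 1), and phytol kinase (Zm00001eb066790), a chloroplast enzyme on the way to vitamin E, by 2.34 and 0.86.

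None of these 4 kinases was called in a tested comparison. In root, 3 of them had an adjusted p under 0.05 at 24.5 h against 24 h with a log2 fold change under 1. SRK2E changed by 0.88 ± 0.19 SE, adjusted p = 0.0056, CBL-interacting kinase 10 by 0.78 ± 0.22 SE, adjusted p = 0.0232 and ATG1a by 0.91 ± 0.26 SE, adjusted p = 0.0236.

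Protein turnover and chaperone members were fewer. RD19A (Zm00001eb240700), a cysteine protease of the vacuole, was abundant in both tissues, with 266 ± 15.1 TPM at 0 h and 1210.0 ± 54.4 at 3 h in leaf and 123 ± 12.6 and 347 ± 10.2 TPM in root. The F-box protein PP2-A13 (Zm00001eb001120), a substrate adaptor for ubiquitin ligases, rose by 0.84 in leaf and 1.38 in root on log2(TPM + 1). ERDJ3B (Zm00001eb161610), a DnaJ-type chaperone partner of the endoplasmic reticulum, was listed at 0, 0 and 0.423 TPM in leaf at 0 h and had 71.7, 65.8 and 46.9 at 3 h. Its root means were 1.93 ± 0.190 TPM at 0 h and 13.3 ± 1.46 at 3 h. The 15.4 kDa class V heat shock protein (Zm00001eb322740) rose by 1.47 in leaf and 1.66 in root.

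Other described members fell in no list, among them the following pair. PLANT CADMIUM RESISTANCE 11 (Zm00001eb211260) rose by 2.11 in leaf and 2.09 in root on log2(TPM + 1). A DUF538 family protein (Zm00001eb159870) was listed at 0 TPM in each leaf library at 0 h and had 9.92, 7.66 and 9.92 TPM at 3 h, and in root its 24 h libraries, 6.38, 7.12 and 4.54 TPM, overlapped those of 3 h, 5.42, 7.53 and 12.3 TPM.

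The member of first rank, Zm00001eb011820, has no annotation here. Its leaf libraries had 7.68, 9.90 and 17.4 TPM at 0 h, 137, 167 and 202 at 0.5 h, 1305, 1044 and 1255 at 3 h and 51.8, 69.9 and 55.3 at 24 h. In root they had 0.527, 1.94 and 1.01 TPM at 0 h, 6.76, 20.1 and 12.9 at 0.5 h, 51.4, 55.0 and 62.5 at 3 h and 4.77, 4.15 and 5.74 at 24 h. None of these 4 times overlapped another in either tissue. After nitrate return it was called higher in root, at 15.1, 11.9 and 19.2 TPM (1.46 ± 0.29 SE, adjusted p = 0.00389). At the other end, the member ranked 150, Zm00001eb364480, had a smaller rise of 0.7784, set by leaf, and the first gene outside, Zm00001eb265340, one of 0.7777, set by root. Zm00001eb364480 was called higher in root at 48 h, from 2.66, 2.38 and 3.27 to 7.57, 3.78 and 9.62 TPM (1.01 ± 0.23 SE, adjusted p = 0.0234), a call lost with either scaling and without any of 4 single libraries.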

How the data were processed

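RNA-seq libraries of B73 maize leaf and root were used as the authors deposited them, as TPM values per gene in a leaf table and a root table. By the study's methods, reads were aligned untrimmed to the B73 version 5 genome with STAR and quantified with StringTie, and the labels also list Trimmomatic and DESeq2 without versions. The TPM keep no counts, so no count model was run. Columns were matched to libraries by their labels.

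The members and gene lists were chosen with earlier results of these data known. Values were transformed as log2(TPM + 1). Genes at 1 TPM or more in at least 3 libraries of a tissue were tested, 23268 in leaf and 26245 in root, and all 150 members passed in both, also without the 3 h libraries. Each tissue was fitted on its own with its 18 libraries in limma 3.58.1 (R 4.3.3) with a mean-variance trend, two-sided, and p-values were adjusted by Benjamini-Hochberg over all genes tested. A call needed an adjusted p under 0.05 and a log2 fold change beyond 1, on a scale that understates changes of low genes. Fits were tested on simulated data. Descriptions of 1313 identifiers came from the study's lists of differentially expressed genes in leaf and root. Names came from its 371 network nodes and its clone list, and keyword groups from words in these descriptions and names. Named were members of the network or clone list, the 20 described members with the largest smaller rise, the 2 of first rank, up to 3 annotated calls per direction and comparison, the members beside the limit, and up to 4 per keyword group. No identifier of the files was in the RefSeq gene table (NAM-5.0), and 8 of 9 clone-list members were placed through older identifiers.

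Each comparison was repeated with the replicate number as a block, with only the compared groups fitted, with other pseudocounts (0.1 and 5), with quantile or median-of-ratios scaling, without the filter or with genes of a mean of 5 TPM or more, by adjusted p alone and without each library in turn.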

Additional observations from a re-analysis of the deposited data

Results flagged for a closer look

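HSF6 (Zm00001eb242480), a heat stress transcription factor, moved in opposite directions in the tissues between 0.5 h after withdrawal and 0.5 h after return. In leaf every 24.5 h library was below every 0.5 h library, with a log2 fold change of -0.89, and in root every 24.5 h library was above every 0.5 h library, with 0.75. Neither change was called, and the difference between tissues was not tested.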

How the results depend on the processing

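The count of members called in root at 24.5 h against 24 h was 22. It became 12 with a pseudocount of 5, 19 in a fit of only the 2 groups compared and 42 by adjusted p alone. With libraries left out in turn it ran from 13 to 26. For root at 24.5 h against 0.5 h, the 11 calls became 7 with a pseudocount of 5 and 30 by adjusted p alone, and ran from 6 to 12 with libraries left out. For root at 48 h against 24 h, the 3 calls became 1 with a pseudocount of 5, 7 by adjusted p alone and 0 in a fit of only the 2 groups compared, and ran from 0 to 16 with libraries left out. In leaf, the 2 calls at 48 h against 24 h became 1 with a pseudocount of 5, with no filter and with quantile normalization, 4 by adjusted p alone and 0 with only the groups compared, and ran from 0 to 5 with libraries left out. The 1 leaf call at 24.5 h against 0.5 h became 3 by adjusted p alone, 2 with a mean of at least 5 TPM and with either scaling, and 0 with only the groups compared, and ran from 0 to 7. The count of 0 in leaf at 24.5 h against 24 h ran from 0 to 1. Calls by adjusted p alone drop the fold limit, which raises the counts by construction; the cause of the other shifts was not tested. Of the 15 calls of named genes, 4 held under each of the other settings apart from leaving libraries out, 91 of 118 such repeats kept the call, 27 lost it and none reversed. The choice itself was kept by 131 of the 150 members with median-of-ratios scaling, where 159 genes met it, and by 131 with quantile normalization, where 177 did.

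Replicate numbers are shared between groups, but the libraries of a number did not deviate together, with correlations of -0.35 to 0.27 over the 6 comparisons and no comparison with each pair above 0.1. With the replicate block, the root counts in the same order as above were 20, 10 and 3 members, and the leaf counts 2, 1 and 0.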
